A study of Rattus norvegicus with 9 samples.

Results

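The genes described here encode the enzymes that break down glucose and pyruvate, the enzymes of the citric acid cycle and the malate shuttle, the creatine kinases and the main neural glucose transporters, 34 genes in all. They are represented on the array by all probe sets that the platform annotation ties to exactly 1 of these symbols. That matching used no measured value, though the genes themselves were chosen with earlier results of these data known. Of the 34 genes, 26 had such a probe set, with 56 of the 8799 probe sets in the table, and Pcx was found under its synonym Pc. Gpi, Tpi1, Eno2, Ldha, Idh3a, Idh3b, Ogdh and Fh had none, and 3 further probe sets that Gapdh, Ldha or Tpi1 share with other genes were left out. Of the 56 probe sets, 9 are Affymetrix control probe sets (6 for Gapdh and 3 for Hk1), which are described apart, and the other 47 cover 25 genes, 19 of them with more than 1 probe set. Gapdh was therefore measured here by its control probe sets alone.

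The RNA came from the supraoptic nucleus of the hypothalamus, where large (magnocellular) neurons produce the hormones vasopressin and oxytocin. All rats were male Sprague Dawley animals aged 10 to 12 weeks, per the labels, and they were controls, dehydrated for 1 day or dehydrated for 3 days. Each group had 3 arrays, with replicate letters a, b and c in the titles, and the design compares each dehydrated group with the controls. The labels do not say how the rats were dehydrated or whether each array holds its own animal or a pool, so the p-values measure only how these samples varied, and part of that variation may be technical.

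Glycolysis splits glucose into pyruvate in the cytosol. Pyruvate is then either reduced to lactate or taken into mitochondria, where the pyruvate dehydrogenase complex feeds it into the citric acid cycle. Creatine kinases pass phosphate between ATP and creatine and so buffer the ATP supply of cells with a high and changing demand. Magnocellular neurons fire more and release more hormone when the plasma becomes concentrated, which costs energy for ion pumping, peptide synthesis and secretion.

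Because many glycolytic genes are classical targets of hypoxia-inducible and Sp1-type factors, the 250 bases before the annotated start were read for the members listed in RefSeq's promoter table (build GRCr8). Of the 26 genes, 23 had an entry. The 3 sequences below, written 5′ to 3′ on the gene's strand, belong to the genes with an entry that had the smallest p in a comparison below: Ckmt1 (chr3:128784232-128784481, plus strand), Hk2 (chr4:116841276-116841525, minus strand) and Pgam1 (chr1:250672902-250673151, plus strand). Capitals mark, on either strand, each ACGTG, the core of the hypoxia response element, and each GC box, GGGCGG.
Ckmt1: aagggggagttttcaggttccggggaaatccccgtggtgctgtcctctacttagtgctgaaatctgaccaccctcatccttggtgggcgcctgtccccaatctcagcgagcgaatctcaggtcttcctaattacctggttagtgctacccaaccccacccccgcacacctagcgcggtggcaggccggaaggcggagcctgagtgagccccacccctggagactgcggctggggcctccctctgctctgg
Hk2: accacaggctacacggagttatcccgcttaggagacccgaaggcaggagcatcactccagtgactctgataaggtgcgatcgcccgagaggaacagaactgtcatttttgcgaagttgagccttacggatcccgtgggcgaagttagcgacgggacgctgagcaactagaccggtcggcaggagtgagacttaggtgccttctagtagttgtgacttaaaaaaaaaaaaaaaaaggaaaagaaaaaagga
Pgam1: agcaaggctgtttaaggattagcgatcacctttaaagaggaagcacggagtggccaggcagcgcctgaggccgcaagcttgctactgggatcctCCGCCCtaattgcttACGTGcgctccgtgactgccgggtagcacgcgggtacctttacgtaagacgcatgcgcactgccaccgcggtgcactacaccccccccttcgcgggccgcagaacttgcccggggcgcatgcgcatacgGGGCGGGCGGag
The Pgam1 sequence held 1 ACGTG and 3 GC boxes, of which the last 2 overlap each other, and neither set of letters was found in the Ckmt1 and Hk2 sequences. Over the members, ACGTG was found in 7 of 23 sequences (30.4%), against 16.9% of the 27457 promoters in the table, and the GC box in 10 of 23 (43.5%), against 32.4%. The recognition core of the estrogen-related receptors, AAGGTCA, was found on neither strand (0 of 23 sequences), against 3.77% of all promoters. The members' sequences had a median GC content of 62.0% and a median of 17 CpG dinucleotides, against 52.0% and 6 over all promoters. Such a match is a description of the letters and not a binding site.

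The deposited values are MAS5 signals, which condense the probes of a probe set into 1 brightness on a linear scale. The mean of each array, after trimming the extremes, was 100.1. Of the 47 probe sets that are no controls, 42 (of all 25 genes) had a mean signal over the 9 arrays of at least 23.1, the 40th percentile of the table, and were tested, and the 5 others (1 probe set each of Hk2, Idh1, Pdhb, Pgk1 and Slc2a3) had means of 3.3 to 20.4. The tested members were among the brighter probe sets: their mean signals ran from 74.2 to 2378, with a median of 451.1 against 79.9 over all 5256 tested probe sets, and 19 of the 42 were in the top 10 percent. Signals of different probe sets do not rank the genes by amount of RNA. The 4 magnocellular markers Avp, Oxt, Pdyn and Vgf all passed the filter. The control c and 1-day c arrays stood apart from the rest: the oxytocin signal was 208.3 and 272.0 on them, against 2331 to 4356 on the other 7 arrays, and their brightest probe sets reached 2105 and 2239, against 3867 to 6295. For some, not all, of the members and other genes whose values moved with these arrays, the value without them is given below. The plot of all members on the 9 arrays shows each gene's distance from the control mean.

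**Figure D1:**
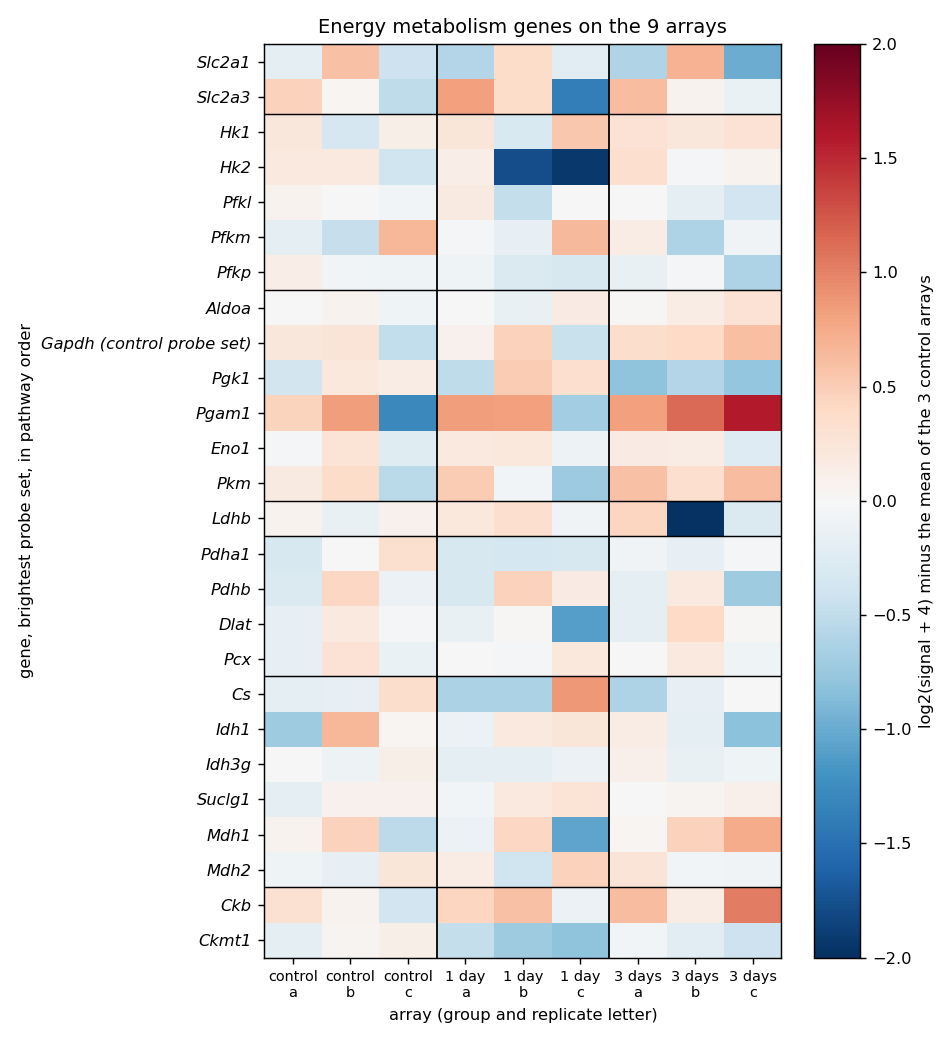
Each row is a gene's brightest probe set and each column an array. Colour is log2(signal + 4) minus the mean of the 3 control arrays, on a scale from -2 to 2. Most cells are pale. The darkest blue cells are Hk2 on the 1-day b and c arrays and Ldhb on the 3-day b array, and the darkest red cell is Pgam1 on the 3-day c array.

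After 1 day of dehydration the members split evenly around the controls. Of the 42 tested probe sets, 21 had a higher and 21 a lower mean log2 signal, and the median log2 fold change was -0.03 (25th to 75th percentile -0.21 to 0.14), against 0.02 over all tested probe sets, of which 52.7% were higher. The lowest values were those of Hk2, a hexokinase, at -1.19 ± 0.49 (SE), and of a Dlat probe set at -0.80 ± 0.72. Next was Ckmt1, the ubiquitous mitochondrial creatine kinase, at -0.67 ± 0.22. No member passed an adjusted p of 0.05 by limma (background 0% of the 5256), and Hk2 and Ckmt1 were the 2 members with an unadjusted p under 0.05 (background 1.01%). In a fit blocked on the replicate letter, the same 2 members had an unadjusted p under 0.05 (background 2.59%), with limma adjusted p of 0.958. The 3 probe sets whose 1-day arrays all lay below all control arrays were those of Ckmt1, Pfkp and Idh3g (background 1.58%), and 0 lay wholly above (background 2.63%). For 25 of the 42 probe sets the 95% interval of the difference stayed within 2-fold in either direction (32 with the block), and the median standard error was 0.31 on the log2 scale.

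After 3 days the members again centred near the controls, with single genes on either side. There were 20 higher and 22 lower probe sets, and the median log2 fold change was -0.04 (25th to 75th percentile -0.24 to 0.15), against 0.02 over all tested probe sets, of which 51.7% were higher. Without the 3-day c array the median was 0.075. The highest value was that of the brightest probe set of Pgam1, phosphoglycerate mutase, at 1.18 ± 0.56. A probe set of Pgk1, the first ATP-producing enzyme of glycolysis, was at -0.72 ± 0.30, and the 2 probe sets of Ldhb, a lactate dehydrogenase subunit, were at -0.61 ± 0.49 and -0.89 ± 0.68, the latter the lowest of the 42. Both rest on the 3-day b array and were 0.07 and 0.15 without it. No member passed an adjusted p of 0.05 by limma (background 0%), 1 (Pgk1) had an unadjusted p under 0.05 (background 1.71%), and in the blocked fit 2 did (Pgk1 and Pgam1, background 5.12%), with a smallest limma adjusted p of 0.875. Hk1 was the 1 member whose 3-day arrays all lay above all control arrays (background 4.72%), and Pgk1 the 1 wholly below (background 3.01%). The 95% interval stayed within 2-fold for 24 of the 42 (31 with the block).

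Between 1 and 3 days 22 probe sets were higher at 3 days and 20 lower, with a median of 0.11 (25th to 75th percentile -0.16 to 0.25) against 0.00 over all tested probe sets. That median moved to -0.02 after quantile normalization and to 0.03 without both c arrays of control and 1 day. It was -0.0023 without the 1-day b array, 0.028 without 1-day c and 0.024 without 3-day a. Hk2 had the highest value, 1.32 ± 0.49, and Pgk1 the lowest, -0.84 ± 0.30. No member passed an adjusted p of 0.05 by limma (background 0%), Hk2 and Pgk1 had an unadjusted p under 0.05 (background 1.83%), and with the block Ckmt1 and Pgam1 joined them to make 4 (background 5.23%), with a smallest limma adjusted p of 0.771. Ckmt1, Pdha1 and Pgam1 had 3-day arrays wholly above the 1-day arrays, 3 of 42 probe sets (background 3.04%), and Pgk1 had them wholly below (background 2.66%). The 95% interval stayed within 2-fold for 20 of the 42 (27 with the block). Both dehydrated groups were compared with the same 3 control arrays, and the 2 comparisons involving 1 day share its arrays, so an array that stands apart enters 2 comparisons at once.

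**Figure D2:**
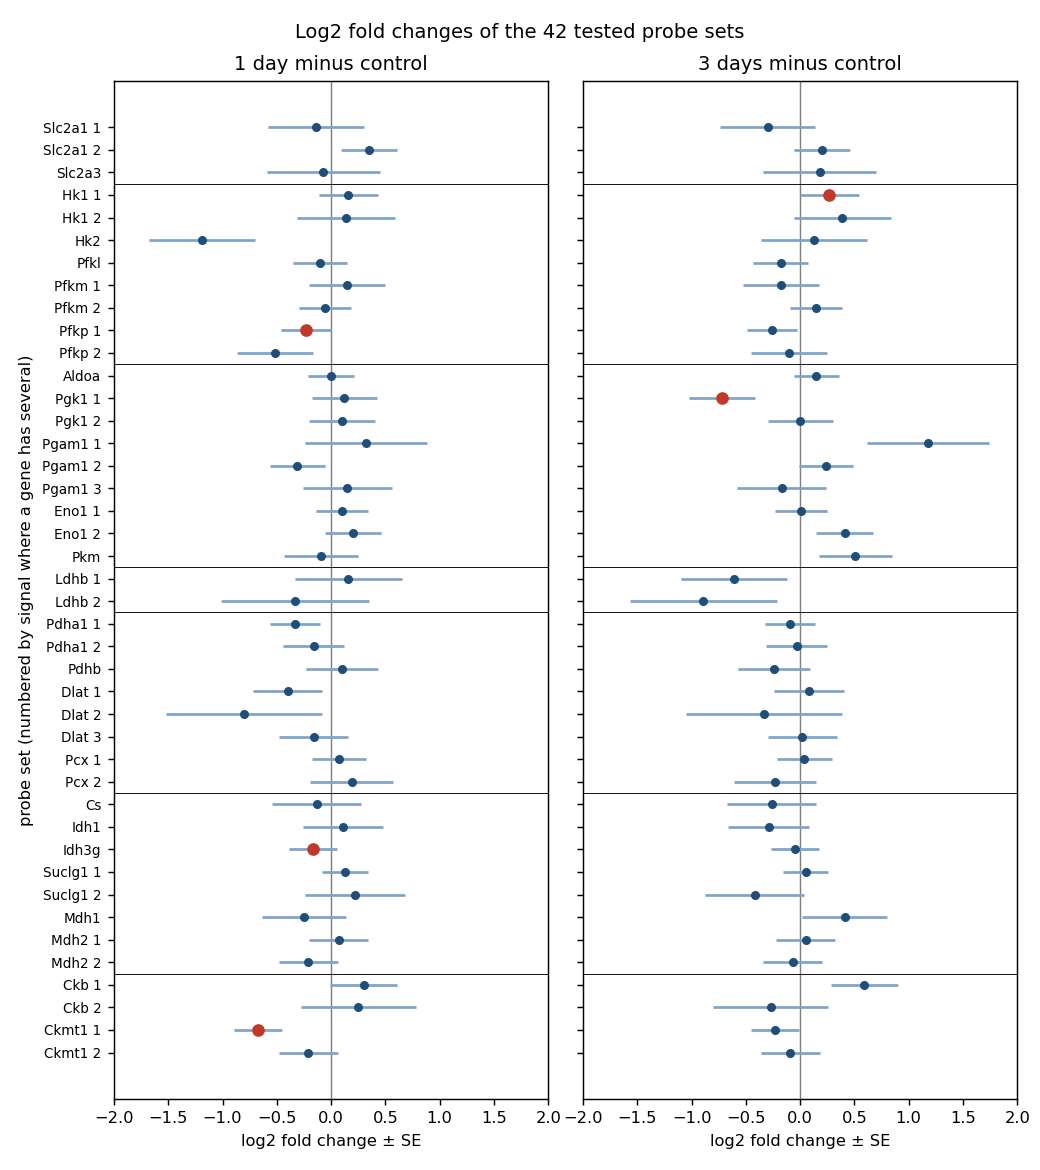
Log2 fold change and standard error (horizontal bar) of each of the 42 tested probe sets at 1 day (left) and 3 days (right) against control, in pathway order from glucose transport at the top to the creatine kinases at the bottom. Red points mark probe sets whose 3 dehydrated arrays all lie above or all below the 3 control arrays: 3 at 1 day and 2 at 3 days. Most points lie within 0.5 of 0.

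Glucose transport was measured by 3 tested probe sets of Slc2a1 and Slc2a3. Slc2a1, the transporter of the blood-brain barrier and of glia, had signals of 403.5, 691.5 and 343.9 on the control arrays a, b and c, of 305.0, 589.9 and 393.9 at 1 day and of 302.0, 740.9 and 228.0 at 3 days on its brighter probe set (S68135_s_at). The b array was highest in every group and the groups overlapped, with log2 fold changes of -0.14 ± 0.44 at 1 day and -0.30 ± 0.44 at 3 days. Its other probe set (M13979_at) read 144.6, 200.6 and 230.6 in controls, 205.6, 240.5 and 284.7 at 1 day and 253.9, 187.3 and 213.0 at 3 days. These groups overlapped too, and the differences had the opposite sign, 0.35 ± 0.26 and 0.20 ± 0.26. Markers of endothelium and blood, measured by 4 of 8 listed genes, summed to 1703 to 1763 in controls, 1777 to 2465 at 1 day and 982.2 to 1243 at 3 days. The list joins endothelial genes (Pecam1, Cldn5, Flt1, Vwf and Tek, with Vwf under the filter) with globin genes (Hbb, Hba1 and Hba-a2). The sum therefore does not show which kind was lower, and its part in the Slc2a1 values was not tested. In a bulk sample, fewer cells of a type and less RNA per cell cannot be told apart. Slc2a3, the neuronal transporter (D13962_g_at), read 127.9, 94.1 and 63.3 in controls, 164.2, 118.8 and 32.7 at 1 day and 142.0, 96.5 and 82.7 at 3 days. In each group the a array was highest and the c array lowest. The group differences were -0.07 ± 0.52 and 0.18 ± 0.52, with a standard error of 0.32 in the fit blocked on the letter.

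The first committed steps, the hexokinases and phosphofructokinases, were measured by 8 tested probe sets of 5 genes. Hexokinases trap glucose in the cell as glucose 6-phosphate. Hk2, the insulin-responsive hexokinase typical of muscle and fat, read 124.3, 125.1 and 81.5 in controls, 118.5, 28.7 and 25.6 at 1 day and 137.8, 105.9 and 114.2 at 3 days (M68971_at). The 1-day b and c arrays were far below all other arrays, while the 1-day a array sat among the controls, so the groups overlapped. At 1 day the mean signal was 57.6 ± 52.8 (SD, n = 3) against 110.3 ± 24.9 in controls, a fold of 0.437 on the log2(signal + 4) scale with a 95% interval of 0.208 to 0.920 and an unadjusted limma p of 0.0324 (adjusted p = 1.0). Without the 1-day a array the log2 difference was -1.85, and without b or c it was -0.90 and -0.83. Between 1 and 3 days the difference was 1.32 (95% interval on the fold scale 1.19 to 5.25), with an adjusted p of 0.998 by limma, and it was 1.98 without the 1-day a array. A second Hk2 probe set gave signals of 1.8 to 5.3 on all 9 arrays, under the filter. Skeletal muscle markers (5 of 6 with a probe set) summed to 121.7 to 174.6 in controls, 155.7 to 216.9 at 1 day and 125.1 to 202.3 at 3 days. Tnni2 and Tnnt3 were under the filter, and the part of muscle in the Hk2 values was not tested.

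Hk1, the hexokinase of brain, read 886.7, 602.3 and 819.6 in controls, 896.7, 612.6 and 1103.2 at 1 day and 927.6, 891.2 and 928.0 at 3 days (rc_AI012593_at). The 3-day arrays lay close together (915.6 ± 21.1, SD, n = 3) and above every control array, but the highest control was 4.5 signal units from the lowest 3-day array, and the log2 difference was 0.27 ± 0.27. On its second probe set, with 180.8 to 289.5 on the a and b arrays and 91.6 to 161.7 on the c arrays, the difference at 3 days was 0.39 ± 0.45 with overlapping groups, and -0.01 without both c arrays of control and 1 day. The phosphofructokinases Pfkl, Pfkm and Pfkp are subunits of the enzyme that sets the pace of glycolysis. Pfkp, the platelet-type subunit that is common in brain, read 625.8, 545.3 and 537.4 in controls, 533.2, 465.3 and 451.8 at 1 day and 512.9, 559.0 and 369.7 at 3 days (L25387_g_at). All 1-day arrays lay below all controls, by a gap of 4.2 signal units between the nearest arrays, and the log2 difference of -0.23 ± 0.23 equalled its standard error. The other Pfkp probe set (L25387_at) read 197.2, 147.5 and 179.8 in controls, 179.7, 140.2 and 67.8 at 1 day and 183.0, 171.2 and 134.2 at 3 days. Its difference of -0.52 ± 0.35 at 1 day rested on the c array and was -0.13 without it. Pfkl and the 2 Pfkm probe sets had differences of -0.18 to 0.15 in the comparisons with control.

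From aldolase to pyruvate, 9 tested probe sets of 5 genes were measured, 7 of them higher and 2 lower at both times, with medians of 0.10 at 1 day and 0.15 at 3 days. Over all tested probe sets 52.7% were higher at 1 day and 51.7% at 3 days. After quantile normalization 4 were higher and 5 lower at 3 days, with a median of -0.0036, and 7 higher and 2 lower at 1 day (median 0.13). Without both c arrays of control and 1 day 6 were higher and 3 lower at 3 days, with a median of 0.11. At 1 day 5 were then higher and 4 lower, with a median of 0.064. Aldoa, which splits fructose bisphosphate, varied little, from 1276.5 to 1732.2 over the 9 arrays, and its differences were 0.00 ± 0.21 and 0.15 ± 0.21 (-0.03 at 3 days after quantile normalization). Pgk1, phosphoglycerate kinase, gave 2 patterns. Its brighter probe set (rc_AA892797_at) read 722.1, 1074.4 and 1031.0 in controls, 653.4, 1327.4 and 1177.9 at 1 day and 532.5, 616.0 and 539.7 at 3 days. The 3-day arrays were below all arrays of the other 2 groups. The mean was 562.7 ± 46.3 (SD, n = 3) at 3 days against 942.5 ± 192.1 in controls, a fold of 0.607 with a 95% interval of 0.384 to 0.958, an unadjusted limma p of 0.0347 and an adjusted p of 1.0. Against 1 day the fold was 0.559 (95% interval 0.354 to 0.883, limma adjusted p = 0.998). The second probe set (M31788_g_at) read 525.4, 734.4 and 918.0 in controls, 572.0, 737.9 and 1043.3 at 1 day and 608.8, 880.3 and 665.2 at 3 days. Here the groups overlapped throughout and the 3-day difference was 0.00 ± 0.30, so the 2 probe sets of the gene differed by 0.72 on the log2 scale.

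Pgam1, phosphoglycerate mutase, had 3 tested probe sets. The brightest (S63233_at) read 1701.6, 2223.1 and 508.7 in controls, 2213.3, 2189.7 and 767.5 at 1 day and 2212.5, 2725.1 and 3754.6 at 3 days. The c arrays of control and 1 day were far below the others, the c array at 3 days was the highest of all, and control b overlapped the 3-day arrays. The 3-day difference of 1.18 ± 0.56 (2.27-fold, 95% interval 0.967 to 5.32, limma adjusted p = 1.0) was 0.54 without the control c array and 0.95 after quantile normalization. The second (S63233_g_at) read 1556.0, 2096.9 and 1242.0 in controls, 1201.1, 1332.5 and 1332.6 at 1 day and 1579.6, 2043.2 and 2055.2 at 3 days. All 3-day arrays were above all 1-day arrays, with a difference of 0.54 ± 0.25 (limma adjusted p = 0.998), while the controls spanned both. The third (rc_AI169417_s_at) read 434.3 to 1296.3 and differed by 0.15 ± 0.41 and -0.17 ± 0.41 from control, so the 3 probe sets of Pgam1 spanned 1.36 on the log2 scale at 3 days, the widest spread of the 15 genes with more than 1 tested probe set.

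**Figure D3:**
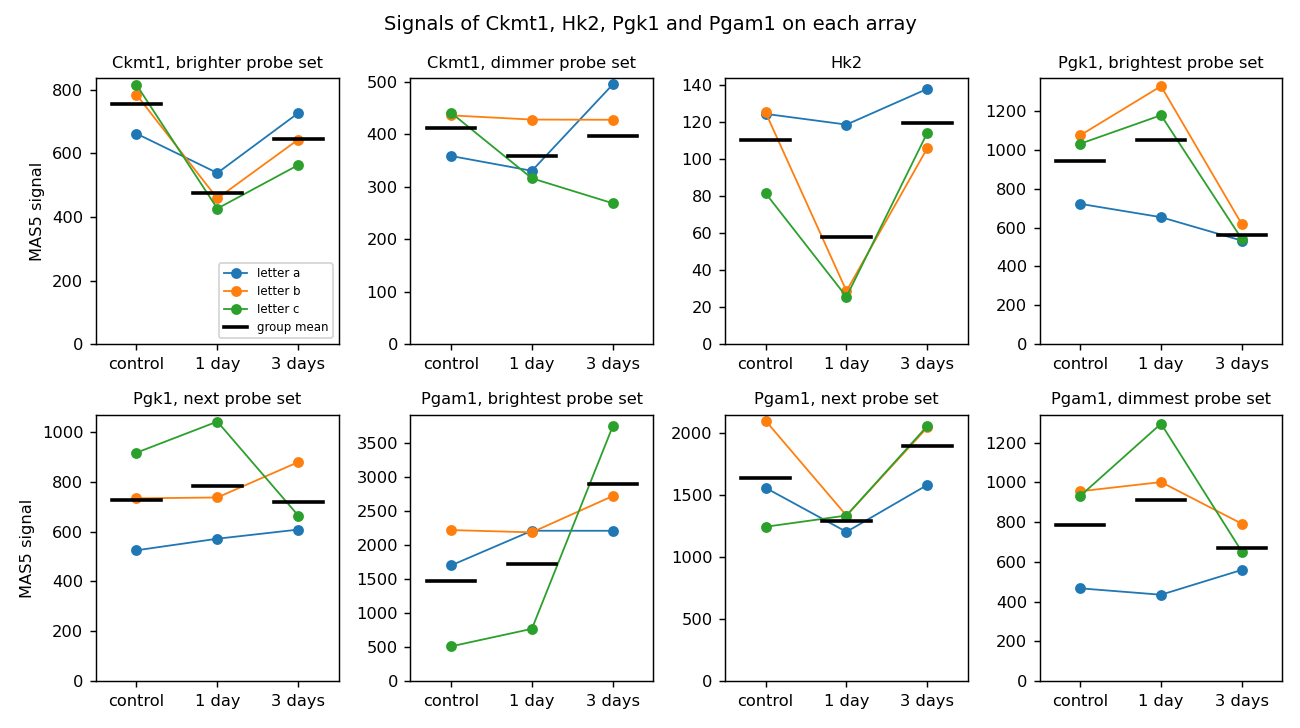
MAS5 signal (linear axis from 0) of every array for the probe sets of Ckmt1, Hk2, Pgk1 and Pgam1 that passed the filter, with lines joining arrays of the same replicate letter and black bars for group means. Ckmt1 is lower on all 1-day arrays on its brighter probe set and not on its dimmer one. Pgk1 is lower on all 3-day arrays on its brightest probe set and not on the next, and the 3 Pgam1 probe sets show different courses.

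Eno1, an enolase, read 1313.6, 1567.8 and 1578.7 in controls, 1563.1, 1841.9 and 1705.6 at 1 day and 1548.7, 1795.3 and 2727.3 at 3 days (X02610_at). The 3-day c array was the highest, the other arrays overlapped, and the differences were 0.20 ± 0.26 and 0.41 ± 0.26, the latter 0.04 after quantile normalization. Its other probe set had 0.10 ± 0.24 and 0.01 ± 0.24. Pkm, the pyruvate kinase that makes the last ATP of glycolysis, read 1924.6, 2187.8 and 1173.1 in controls, 2419.7, 1643.8 and 1024.2 at 1 day and 2563.4, 2154.4 and 2609.9 at 3 days (rc_AA818951_at). Again the c arrays of control and 1 day were the lowest, control b exceeded the lowest 3-day array, and the 3-day difference of 0.51 ± 0.34 was 0.25 without the control c array.

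Lactate dehydrogenase was measured by Ldhb alone, the subunit whose tetramer favours the oxidation of lactate to pyruvate. Its brighter probe set (U07181_at) read 1345.3, 1150.0 and 1357.6 in controls, 1487.1, 1609.8 and 1223.0 at 1 day and 1721.4, 320.9 and 1050.3 at 3 days. A single array, 3-day b, was far below all others and 3-day a was the highest of all 9. The 3-day difference of -0.61 ± 0.49 became 0.07 without the 3-day b array. The other Ldhb probe set read 128.7 on the 3-day b array, 556.6 on 1-day c and 952.9 to 1153.5 on the other 7. Second probe sets of Ckb (115.5) and Suclg1 (75.5) were also lowest on the 3-day b array. Without that array their 3-day differences went from -0.27 to 0.49 and from -0.42 to 0.12.

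The entry of pyruvate into mitochondria was measured by 8 tested probe sets of Pdha1, Pdhb, Dlat and Pcx, with medians of -0.16 at 1 day and -0.06 at 3 days. Pdha1, the catalytic subunit that starts pyruvate dehydrogenase, read 465.6, 581.6 and 729.0 in controls, 465.0, 453.9 and 466.9 at 1 day and 551.5, 520.4 and 569.5 at 3 days (rc_AA799598_at). The 1-day arrays lay within 13.0 signal units of each other and below all 3-day arrays, while control a matched them. The differences were -0.33 ± 0.23 at 1 day, -0.09 ± 0.23 at 3 days and 0.24 ± 0.23 between the 2 times. The second Pdha1 probe set read 159.1 to 255.3 and differed by at most 0.16 in any comparison. Dlat, the acetyltransferase core of the complex, had 3 probe sets at -0.40 ± 0.32, -0.80 ± 0.72 and -0.16 ± 0.32 at 1 day. The first 2 were lowest on the 1-day c array (152.7 and 19.2) and stood at -0.07 and -0.19 without both c arrays of control and 1 day, while the third moved to -0.41. Pdhb, the other subunit of the first enzyme, was at 0.10 ± 0.33 and -0.24 ± 0.33. Pcx, pyruvate carboxylase, which refills the cycle with oxaloacetate and is enriched in astrocytes, was steady on its brighter probe set, from 83.1 to 115.0 on all arrays, with 0.07 ± 0.25 and 0.04 ± 0.25.

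The citric acid cycle and the malate shuttle were measured by 8 tested probe sets of 6 genes, with medians of -0.03 at 1 day and -0.06 at 3 days. Idh3g, a regulatory subunit of the NAD-dependent isocitrate dehydrogenase, read 208.4, 195.9 and 227.9 in controls, 184.6, 182.7 and 193.9 at 1 day and 225.1, 189.8 and 197.7 at 3 days (rc_AA892808_at). Its 1-day arrays were all below its controls, by a gap of 2.0 signal units, and the log2 difference was -0.17 ± 0.22. Its signals stayed within 1.25-fold of each other on all 9 arrays, the narrowest range of the tested members. Suclg1, which makes GTP or ATP from succinyl-CoA, read 386.4 to 527.8 on its brighter probe set, with differences of 0.13 ± 0.21 and 0.05 ± 0.21 and a 95% interval of 0.746 to 1.44-fold at 3 days. Cs, citrate synthase, read 132.7, 135.9 and 194.6 in controls, 96.3, 96.6 and 281.3 at 1 day and 97.2, 135.7 and 152.6 at 3 days (-0.13 ± 0.41 and -0.26 ± 0.41). Its c array was the highest in every group, and the differences were -0.46 and -0.09 without both c arrays of control and 1 day. Mdh1, the cytosolic malate dehydrogenase of the shuttle that carries electrons into mitochondria, read 1724.2, 2240.3 and 1131.7 in controls, 1501.1, 2180.2 and 785.0 at 1 day and 1678.0, 2250.4 and 2743.9 at 3 days. As for Pgam1 and Pkm, the c arrays of control and 1 day were lowest and the 3-day c array highest (-0.25 ± 0.39 and 0.41 ± 0.39, or -0.12 and 0.15 without both c arrays of control and 1 day). Mdh2, its mitochondrial counterpart, had differences of -0.21 to 0.07 from control (-0.54 to 0.17 without those arrays), and Idh1, a cytosolic NADP-dependent isocitrate dehydrogenase, of 0.11 ± 0.37 and -0.29 ± 0.37.

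The creatine kinases were measured by 4 tested probe sets. Ckmt1, which charges creatine at the mitochondrial membrane, read 662.5, 785.0 and 816.4 in controls, 538.5, 458.5 and 426.6 at 1 day and 727.0, 643.6 and 563.5 at 3 days (X59737mRNA_at). The 1-day arrays were below all control arrays by at least 124.0 signal units and below all 3-day arrays, and the 3-day arrays overlapped the controls. The means were 754.6 ± 81.3 in controls, 474.5 ± 57.6 at 1 day and 644.7 ± 81.8 at 3 days (SD, n = 3 each). At 1 day the fold was 0.630 with a 95% interval of 0.449 to 0.886, an unadjusted limma p of 0.0124 and an adjusted p of 1.0, and the log2 difference stayed between -0.76 and -0.59 when any 1 array was left out. From 1 to 3 days the log2 difference was 0.44 ± 0.22. The dimmer probe set of the gene read 358.9, 436.3 and 441.4 in controls, 330.6, 428.3 and 316.3 at 1 day and 495.4, 427.9 and 268.7 at 3 days. It overlapped between all groups, at -0.21 ± 0.27 and -0.09 ± 0.27. Ckb, the cytosolic brain creatine kinase, read 2288.1, 1961.7 and 1430.7 in controls, 2513.9, 2789.8 and 1719.5 at 1 day and 2844.8, 2051.7 and 3799.5 at 3 days (M57664_at). The 3-day c array was the highest and 3-day b lay below control a. The 3-day difference of 0.59 ± 0.31 (1.51-fold, 95% interval 0.940 to 2.43, limma adjusted p = 1.0) was 0.24 after quantile normalization and 0.38 without the 3-day c array. The other Ckb probe set was at 0.25 ± 0.53 and -0.27 ± 0.53.

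Probe sets of 1 gene often had opposite signs. There were 15 genes with more than 1 tested probe set. All probe sets of a gene had the same sign in 10 genes at 1 day and in 6 at 3 days. Between the times this held for 9 genes. The median spread within a gene was 0.21 at 1 day, 0.33 at 3 days and 0.32 between the times on the log2 scale. The median absolute difference over the members was 0.16, 0.21 and 0.25, beside a median standard error of 0.31 in each comparison. The share of genes with the same sign was not computed for the other genes of the array. Whether these counts differ from those of random signs was not tested.

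The brightest members shared a shift that other bright probe sets had too. Of the 9 members in the top 5 percent of mean signal, 8 were higher at 3 days than in controls, with a median log2 difference of 0.41. Of the 254 other probe sets in that band 183 were higher (72.0%, median 0.20). After quantile normalization, which gives all arrays the same distribution of signals, 6 of the 9 members (median 0.04) and 117 of the 254 others (46.1%, median -0.02) were higher. Without both c arrays of control and 1 day, 7 of the 9 members (median 0.15) and 172 of the 254 others (67.7%, median 0.16) were higher. With quantile normalization Pkm went from 0.51 to 0.28, Mdh1 from 0.41 to 0.19 and Pgam1 from 1.18 to 0.95. At 1 day 6 of the 9 were higher (median 0.10), beside 128 of the 254 others (50.4%).

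**Figure D4:**
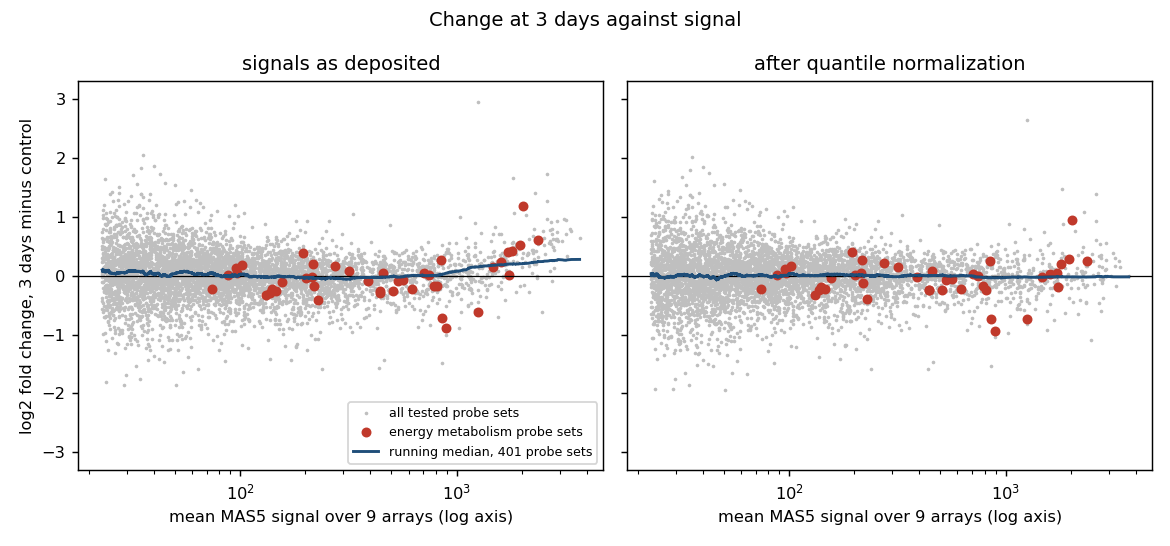
Log2 fold change at 3 days against control (vertical axis) by mean signal over the 9 arrays (log axis) for all 5256 tested probe sets (grey) and the 42 members (red), from the signals as deposited (left) and after quantile normalization (right). The line is a running median over 401 probe sets, with narrower windows at the ends. It bends upwards among the brightest probe sets on the left and stays at 0 on the right, and the red points there come down with it.

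Gapdh, which oxidizes glyceraldehyde phosphate and is often taken as a reference gene, was read by its control probe sets, without a test. The middle probe set gave 2709.0, 2749.0 and 1647.5 in controls, 2443.7, 3189.2 and 1700.3 at 1 day and 2939.7, 3042.4 and 3493.0 at 3 days. The c arrays of control and 1 day were again the lowest, and all 3-day arrays lay above all controls, a log2 difference of 0.45. The 5′ probe set gave 2537.0, 2533.0 and 1472.2 in controls and 2738.0, 3091.6 and 2947.0 at 3 days, and the 3′ probe set 2421.8, 2766.4 and 1363.7 and 3070.4, 2757.8 and 4553.2. Their 3-day differences were 0.47 without overlap and 0.69 with overlap. After quantile normalization the 3 differences (middle, 5′ and 3′) were -0.07, 0.06 and 0.28, and all 3 overlapped the controls. Without the control c array they were 0.21, 0.20 and 0.38. The ratio of the 3′ to the 5′ Gapdh signal, a common measure of RNA integrity, was 0.85 to 1.55 over the arrays, lowest on 1-day c and highest on 3-day c. The same ratio of actin (0.74 to 1.48) and of Hk1 (1.23 to 4.81) was highest on 1-day c. The 3 control probe sets of Hk1 read 23.7 to 336.8.

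The other genes of these pathways were taken from a list of 77 further enzymes, transporters and regulators, of which 41 genes had tested probe sets, 64 in all. By limma 0 of the 64 passed an adjusted p of 0.05 in any comparison, and 0, 2 and 3 had an unadjusted p under 0.05 at 1 day, at 3 days and between the 2 times (backgrounds 1.01%, 1.71% and 1.83%). Their medians were 0.04, -0.12 and -0.08. At 1 day 33 were higher and 31 lower, with 0 probe sets wholly above the controls (background 2.63%) and 2 wholly below (background 1.58%). At 3 days 25 were higher and 39 lower, with 4 wholly above (background 4.72%) and 5 wholly below (background 3.01%). Between the times 27 were higher and 37 lower, with 2 wholly above (background 3.04%) and 3 wholly below (background 2.66%).

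Esrra, the estrogen-related receptor alpha, a regulator of mitochondrial genes, read 50.3, 34.3 and 47.4 in controls, 15.1, 26.8 and 59.8 at 1 day and 13.5, 6.7 and 12.9 at 3 days. The 3-day arrays were below all others, and their signals lay under the filter value of 23.1, so the probe set was tested only because of its signal in the other groups. The fitted difference was -1.69 ± 0.51, with a limma adjusted p of 1.0, and is uncertain in size at these signals. The other Esrra probe set, with 3.2 to 9.7 on all arrays, was under the filter and not tested. Pygb, the brain glycogen phosphorylase, read 202.3, 206.2 and 210.1 in controls, 222.0, 202.2 and 271.5 at 1 day and 143.4, 107.0 and 136.8 at 3 days on the probe set with the smallest p. All 3-day arrays were lower than all others, with -0.67 ± 0.24 against control and -0.83 ± 0.24 against 1 day, but its brightest probe set was at -0.13 ± 0.27 and -0.21 ± 0.27. The dimmest Pygb probe set was at -0.81 ± 0.87 and -0.27 ± 0.87, with overlapping groups. Me1, the malic enzyme that makes NADPH, had 4 tested probe sets at 3 days between -0.75 and -0.43, of which 1 was wholly below control, with 112.6, 100.8 and 117.5 in controls, 119.0, 77.1 and 103.6 at 1 day and 88.0, 63.3 and 70.5 at 3 days. Gatm, the first enzyme of creatine synthesis, read 195.5, 258.6 and 145.9 in controls, 153.2, 267.1 and 258.8 at 1 day and 163.4, 121.3 and 99.8 at 3 days. The groups overlapped, with -0.79 ± 0.32 at 3 days against 1 day. Gamt, the second, read 228.9, 206.1 and 317.3 in controls, 187.4, 140.3 and 193.2 at 1 day and 130.1, 162.3 and 223.6 at 3 days. Its 1-day arrays were below all controls, with a difference of -0.51 ± 0.29, which was 0.05 ± 0.31 on the other probe set. Pdk2, a kinase that switches off pyruvate dehydrogenase, read 302.5, 255.1 and 375.5 in controls, 306.2, 181.8 and 69.5 at 1 day and 294.6, 188.5 and 319.1 at 3 days on its brighter probe set. Its 1-day difference of -0.94 ± 0.46, and that of -0.72 ± 0.40 on the other probe set, rested on the c arrays and were -0.23 and -0.26 without both c arrays of control and 1 day.

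Aldoc, the brain aldolase, which is strongest in astrocytes, read 2777.3, 2659.7 and 1283.1 in controls, 2866.1, 2970.4 and 1263.1 at 1 day and 3322.9, 3442.5 and 4356.2 at 3 days on its brighter probe set. Both of its probe sets were above all controls at 3 days, at 0.80 ± 0.39 and 0.38 ± 0.22 (0.44 and 0.25 without both c arrays of control and 1 day). After quantile normalization these differences were 0.35 and -0.08. The summed signal of the astrocyte markers, with 8 of 10 listed genes measured and Aldoc among them, was 6520 to 11130 in controls, 6676 to 11680 at 1 day and 10730 to 13700 at 3 days. Aldoc is thus part of this sum, which was not computed without it. The magnocellular markers summed to 3194 to 7062, 3270 to 7701 and 8971 to 11990. They are Avp, Oxt, Pdyn and Vgf, and their sum does not separate more cells from more RNA per cell. The general neuronal markers (9 of 10 genes) summed to 6418 to 7989, 6452 to 7883 and 7183 to 7899. The oligodendrocyte markers (6 of 8) summed to 4809 to 7705, 3786 to 8162 and 3317 to 8115. All marker sums use the signals as deposited. They were not recomputed after quantile normalization or without the c arrays of control and 1 day, on which Oxt read 208.3 and 272.0. The part of these markers in the values of Aldoc and of the bright members was not tested. Slc16a1, the monocarboxylate transporter that passes lactate between cells, read 204.3, 245.6 and 157.8 in controls, 208.9, 126.9 and 243.3 at 1 day and 160.8, 132.7 and 93.4 at 3 days on its brighter probe set. The groups overlapped, at -0.65 ± 0.32 at 3 days, and on the other probe set too, at -0.31 ± 0.52.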

How the data were processed

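The deposited values are signal intensities on a linear scale that the authors made with MAS5 (version not stated), as the submitters' processing notes record. Genes were named from the platform annotation, and promoters come from RefSeq's table for GRCr8; protein sequences were not used here, and 0 columns of the table were left unused. From the intensities log2(signal + 4) was computed. Probe sets under a mean signal of 23.1, the 40th percentile, were left out, and limma 3.58.1 (R 4.3.3) modelled the 3 groups in 1 model of all 9 arrays (residual degrees of freedom: 6, or 4 in the blocked fit), with an intensity trend, two-sided moderated tests and Benjamini-Hochberg adjustment over all 5256 tested probe sets in each comparison at a threshold of 0.05. The fit was tested on simulated data with less spread than the real arrays and with changes larger than those of the members. That test therefore does not show which changes the fit could detect in these data. Fold changes are on the log2(signal + 4) scale, which understates the change of dim probe sets. Python 3.11.15 and matplotlib 3.10.9 drew the figures.

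Array values are printed for the 5 members with the smallest p in each comparison, for members whose groups do not overlap and for Gapdh, Hk1, Ckb, Ckmt1, Slc2a1, Slc2a3, Ldhb and Pkm; of the other pathway genes for the 3 with the smallest p in each comparison and for Aldoc, Esrra and Slc16a1. Further members, such as Mdh1 and Cs, and further values were chosen after they were seen. The members and lists were chosen with earlier results of these data known.

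The letters a, b and c pair the arrays across groups in the values: after subtraction of group means, the 9 same-letter pairs had r from 0.17 to 0.47 over probe sets, against -0.33 to 0.12 for 18 pairs with different letters. What the letter means is not stated in the labels. Standard errors, intervals and p-values leave the letter out unless the block is named. The median standard error of the members was 0.31 without the block and 0.23 with it. A 3-array group limits the precision, and the alternatives tried are given in the closing section.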

Additional observations from a re-analysis of the deposited data

Results flagged for a closer look

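Gapdh is measured by control probe sets that no comparison above tests. Its 5′ and middle control probe sets were above all control arrays on all 3 arrays of the 3-day group, with log2 differences of 0.47 and 0.45. After quantile normalization the differences were 0.06 and -0.07, and the groups overlapped. Without the control c array they were 0.20 and 0.21.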

How the results depend on the processing

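No member passed an adjusted p of 0.05 by limma in any of the 3 comparisons under any of the alternatives: pseudocounts of 1 and 16, no filter on dim probe sets or one at the 60th percentile, median centring, quantile normalization, no intensity trend, the replicate block, fits on the groups compared only and each array left out in turn. With the replicate block the smallest adjusted p of a member was 0.958 at 1 day, 0.875 at 3 days and 0.771 between the 2 times, and no call changed. The members' median at 3 days against 1 day, 0.11 as reported, moved by more than the 0.076 that replicates varied by: to 0.018 with no filter, -0.021 with quantile normalization, with or without the replicate block, 0.028 without both c arrays of control and 1 day, -0.022 with the brightest probe set of each gene alone, and to between -0.0023 and 0.11 with 1 array left out. The median at 3 days against control ranged from -0.069 to 0.075 with 1 array left out. Signs of small differences turned in 39 of the 1020 recomputed values of named probe sets. Quantile normalization turned Idh3g at 3 days to 0.02, and Ckb and Eno1 at 3 days against 1 day to -0.12 and -0.20. Without both c arrays of control and 1 day, Hk2, Pdha1, Idh3g and Slc2a3 at 3 days came to -0.07, 0.07, 0.01 and -0.07, and Slc2a3 to 0.34 at 1 day and -0.41 between the times. With 1 array left out, values at 1 day ranged from -0.03 to 0.39 for Hk1, -0.33 to 0.82 for Pgam1, -0.08 to 0.43 for Pgk1, -0.39 to 0.23 for Pkm, -0.40 to 0.15 for Slc2a1 and -0.51 to 0.59 for Slc2a3. At 3 days they ranged from -0.07 to 0.23 for Hk2, -0.12 to 0.01 for Idh3g, -1.13 to 0.07 for Ldhb, -0.25 to 0.07 for Pdha1, -0.22 to 0.03 for Pfkp, -0.79 to 0.05 for Slc2a1 and -0.07 to 0.42 for Slc2a3. Between the times they ranged from -0.03 to 0.38 for Eno1, -0.12 to 0.30 for Hk1, -0.15 to 0.15 for Pfkp, -0.65 to 0.19 for Slc2a1 and -0.41 to 0.69 for Slc2a3. The cause of these turns was not tested, except that Ldhb turned without the 3-day b array. With 3 arrays a group the 95% interval of 17 to 22 of the 42 members, or 10 to 15 with the replicate block, reached past 2-fold, so these data do not bound their change to under 2-fold.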
